A study of Arabidopsis thaliana with 8 samples.

Results

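The early miRNA response to 24-epibrassinolide (EBR), a highly active brassinosteroid, was examined after 30 min of treatment in whole seedlings of *Arabidopsis thaliana* ecotype Columbia. Wild-type seedlings were grown for 7 days in liquid half-strength MS medium with sucrose under continuous light, and then received medium with 10 nM EBR or with the mock solution, which held the solvent DMSO. The comparison used 4 of the 8 arrays of the series, namely the 2 arrays of seedlings given EBR for 30 min (EBR30) and the 2 arrays of seedlings given the mock solution for the same time (mock30). The other 4 arrays came from seedlings treated for 180 min (EBR180 and mock180), which share strain, age and growth conditions. The arrays were chosen by their labels, not by their values. According to the series record 2 independent experiments were run at each time, but no source says which flasks or seedlings went into each array, so the spread between arrays, on which the p-values rest, may be partly technical. Whole seedlings mix all organs, and the arrays hold no markers of organ or cell type, so fewer cells that make a miRNA and less of it per cell cannot be told apart.

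Plant miRNAs are short RNAs that pair almost completely with their target mRNAs and mostly lead to their cleavage. Many conserved families act on transcription factors that control development, such as the SPL, NF-YA, HD-ZIP III and auxin response factors, while others act on nutrient uptake and on copper proteins. Brassinosteroids are perceived at the cell surface by the receptor kinase BRI1, and the signal reaches the nucleus through the transcription factors BZR1 and BES1, which change the activity of their target genes within a short time. Such genes were not measured here, since the arrays held probes for miRNAs only.

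For a miRNA above 0.01 on all 8 arrays, the deposited value is a linear ratio to its median over those arrays. A ratio of 1 is then the typical level of that miRNA in the series. Ratios of different miRNAs say nothing about which is more abundant. Of the 161 miRNAs on the array, 43 from 34 families were above the lowest deposited value of 0.01 on all 8 arrays, and these were tested. Another 4 were at 0.01 on at least one array but not on all, and 114 were at 0.01 throughout. The lowest value above 0.01 on any array was 0.434, with nothing in between. For a miRNA at 0.01 on some arrays a ratio of 1 need not be its typical level. Thus miR394a was between 0.434 and 0.568 wherever it was above 0.01.

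The whole profile lay lower on the mock30 arrays than on the EBR30 arrays. The median ratio over the 43 miRNAs was 0.818 on mock30 replicate 1 and 0.931 on replicate 2, against 0.970 and 0.988 on the EBR30 arrays. On mock30 replicate 1, 40 of the 43 miRNAs were below 1, compared with 24 on EBR30 replicate 2. On the log2 scale the array medians were 0.17 higher in EBR30, and 0.07 higher when mock30 replicate 1 was left out (two-sided exact permutation test with all 4 arrays, p = 0.333, the smallest possible with 2 arrays against 2). The mock30 arrays also differed from each other, with 41 of the 43 miRNAs higher on replicate 2 than on replicate 1. Whether this shift came from the seedlings or from the scaling of the arrays was not tested, and each result is therefore given for the deposited ratios and again after centring, in which the array median was subtracted so that values are relative to the typical miRNA on the same array.

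**Figure D1:**
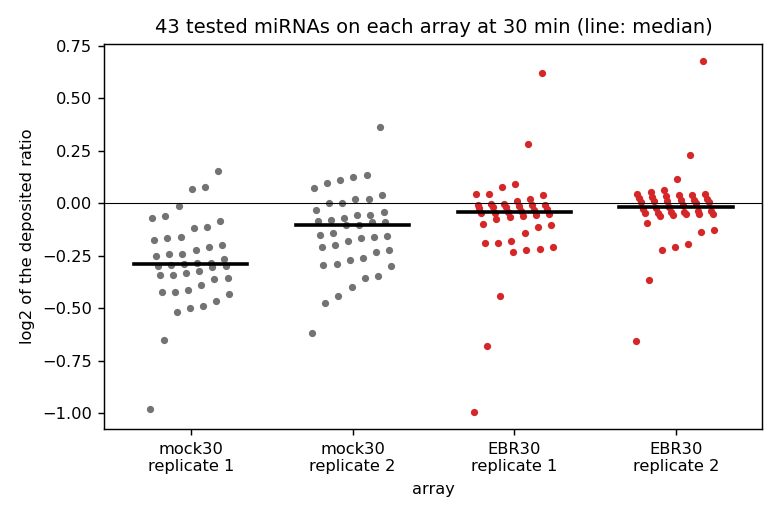
The log2 of the deposited ratio (vertical axis) is shown for the 43 tested miRNAs on each of the 4 arrays at 30 min, 1 point per miRNA, with a line at the array median. Mock30 replicate 1 has the lowest median at a ratio of 0.818 and the EBR30 arrays the highest at 0.970 and 0.988.

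With the deposited ratios 16 of the 43 miRNAs (37.2%) passed an adjusted p of 0.05 in limma, of which 13 (30.2%) were higher in EBR30 and 3 (6.98%) were lower. The standard error of each log2 fold change was 0.125, because the fit detected no difference in spread between miRNAs and used a common spread. The very small p-values with the deposited ratios rest on this. With its own spread miR397a had an adjusted p of 0.0326. On centred arrays the standard errors ranged from 0.0374 to 0.223. After centring 8 passed (18.6%), 4 higher (9.30%) and 4 lower (9.30%). The 5 miRNAs called in the same direction under both scalings were miR397a, which was lower, and miR846, miR169d, miR169h and miR160a, which were higher. Another 11 passed only with the deposited ratios and 3 only after centring, which makes 19 miRNAs called under either scaling. In 28 of the 43 miRNAs (65.1%) both EBR30 arrays were above both mock30 arrays, and in 5 (11.6%) both were below them. After centring these counts were 18 (41.9%) and 14 (32.6%).

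The calls depended on single arrays. With the deposited ratios, miR846, miR397a, miR169d, miR398b and miR169h passed in limma whichever of the 4 arrays at 30 min was left out. Without mock30 replicate 1 the other calls except that of miR162a were lost, 10 in all, with adjusted p-values from 0.0562 for miR163 to 0.528 for miR169a. Leaving out EBR30 replicate 1 ended 11 calls, with adjusted p-values from 0.0763 for miR824 to 0.744 for miR825. Without EBR30 replicate 2, 7 calls were lost, from 0.0514 for miR166a to 0.219 for miR169a, and without mock30 replicate 2 those of miR162a (0.0516) and miR825 (0.248). After centring, the calls of miR397a, miR169d and miR172b* held without any one of these arrays, whereas 3 miRNAs passed without EBR30 replicate 1, 4 without EBR30 replicate 2, and 13 without either mock180 array, which enter through the estimate of the spread.

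**Figure D2:**
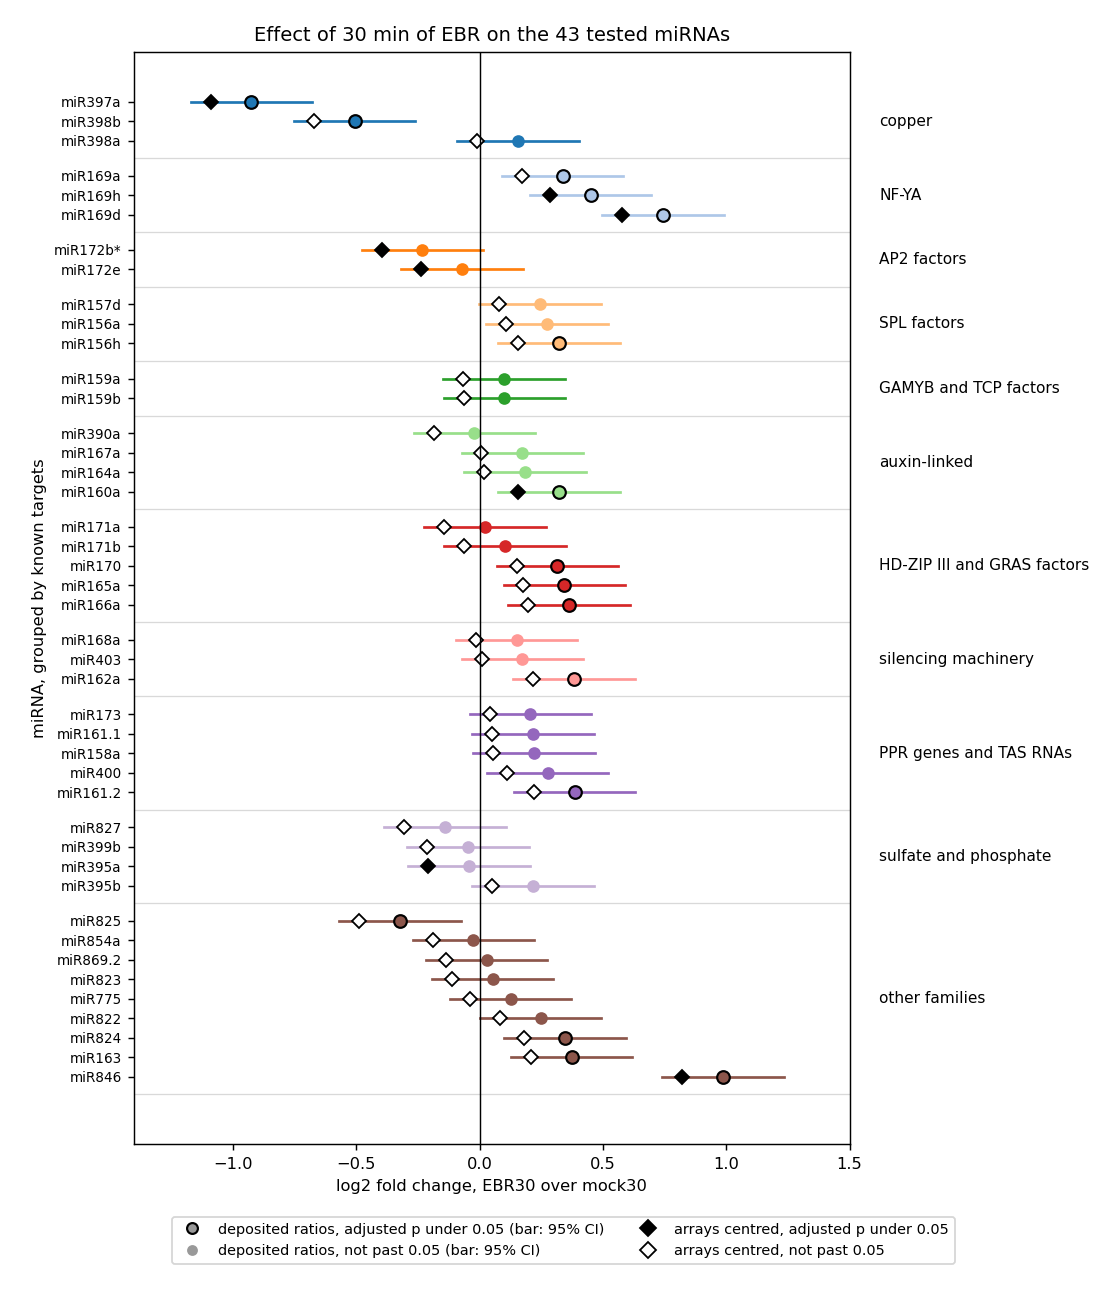
Log2 fold changes of EBR30 over mock30 (horizontal axis) are shown for the 43 tested miRNAs (vertical axis), grouped by what their families are known to target; circles with 95% confidence intervals are from the deposited ratios and diamonds from centred arrays, with black outlines or filled diamonds for an adjusted p under 0.05. miR397a at -0.92 and miR846 at 0.99 lie at the ends, and the 3 miR169 members are all to the right of 0.

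The copper-linked miRNAs held the strongest decrease. In *Arabidopsis* miR397, miR398, miR408 and miR857 accumulate when copper is scarce, under the control of the transcription factor SPL7, and repress mRNAs of copper proteins that the plant can spare. Of the 6 such miRNAs on the array 3 were tested, and 2 of them, miR397a and miR398b, fell in EBR30 with the deposited ratios, against 6.98% of all tested miRNAs, while 1 of them, miR397a, fell after centring, against 9.30% of all. The median log2 fold change of the 3 was -0.51, against 0.18 over all 43 miRNAs, and -0.67 after centring, against 0.02.

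miR397a (locus AT4G05105) targets laccase mRNAs, among them those of LAC4 and LAC17, whose enzymes polymerise lignin in the cell wall. Its ratio was 1.11 and 1.28 on the mock30 arrays and 0.624 and 0.635 on the EBR30 arrays. Both EBR30 values lay far below both mock30 values and were the lowest of all 8 arrays. The level in EBR30 was 0.527 times that in mock30, a log2 fold change of -0.92 with a 95% confidence interval from -1.17 to -0.68 (limma, adjusted p = 1.12e-10). After centring miR397a was at 0.44 and 0.46 on the log2 scale on the mock30 arrays and at -0.64 on both EBR30 arrays. Since the array medians were 0.17 lower in mock30, the gap was wider, and the centred log2 fold change was -1.09 (adjusted p = 7.31e-06), the largest in size of the 43. Another member of the family, miR397b, was at 0.01 on all 8 arrays.

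miR398b (locus AT5G14545) targets the copper/zinc superoxide dismutases CSD1 and CSD2, which detoxify superoxide, and the chaperone CCS that loads them with copper. It was at 1.05 and 1.10 on the mock30 arrays and at 0.737 and 0.777 on the EBR30 arrays. The groups did not overlap, and the log2 fold change was -0.51 with an interval from -0.75 to -0.26 (limma, adjusted p = 0.000795). With its own spread the call of miR398b was lost (adjusted p = 0.225). It was also lost when the miRNAs at 0.01 on some arrays were included (adjusted p = 0.143). After centring the log2 fold change was larger in size, at -0.67, but its standard error was 0.206 and the adjusted p was 0.0620. On the mock180 arrays, which enter that error, miR398b was at 1.02 and 0.629.
miR398a (locus AT2G03445), which differs from miR398b at its 3′ end, did not share the change. Its ratios were 0.846 and 0.952 in mock30 and 1.03 and 0.970 in EBR30, which is a log2 fold change of 0.15 with an interval from -0.09 to 0.40 (limma, adjusted p = 0.320) and of -0.01 after centring. The difference between miR398a and miR398b was not tested. Probes for sequences this close can bind each other's targets, and this was not tested either.

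The remaining copper-linked miRNAs on the array could not be tested, since they were at 0.01 on some arrays. miR408 (locus AT2G47015), which targets plantacyanin and laccase mRNAs, was at 0.806 and 0.717 on the mock30 arrays and at 0.01 on both EBR30 arrays. miR857 (locus AT4G13554), which targets the laccase LAC7, was at 0.632 and 0.666 on the mock30 arrays and likewise at 0.01 on both EBR30 arrays. No other miRNA of the 161 was above 0.01 on both mock30 arrays and at 0.01 on both EBR30 arrays. No fold change is given for either, since how a value of 0.01 was set is not described. At 180 min miR408 was at 0.759 and 0.01 in mock and at 1.07 and 0.835 with EBR, and miR857 was at 0.01 on 3 of the 4 arrays and at 0.784 on EBR180 replicate 1, so that duplicates did not always share the value. The gene of miR857 lies next to that of miR397b in the TAIR10.1 annotation.

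**Figure D3:**
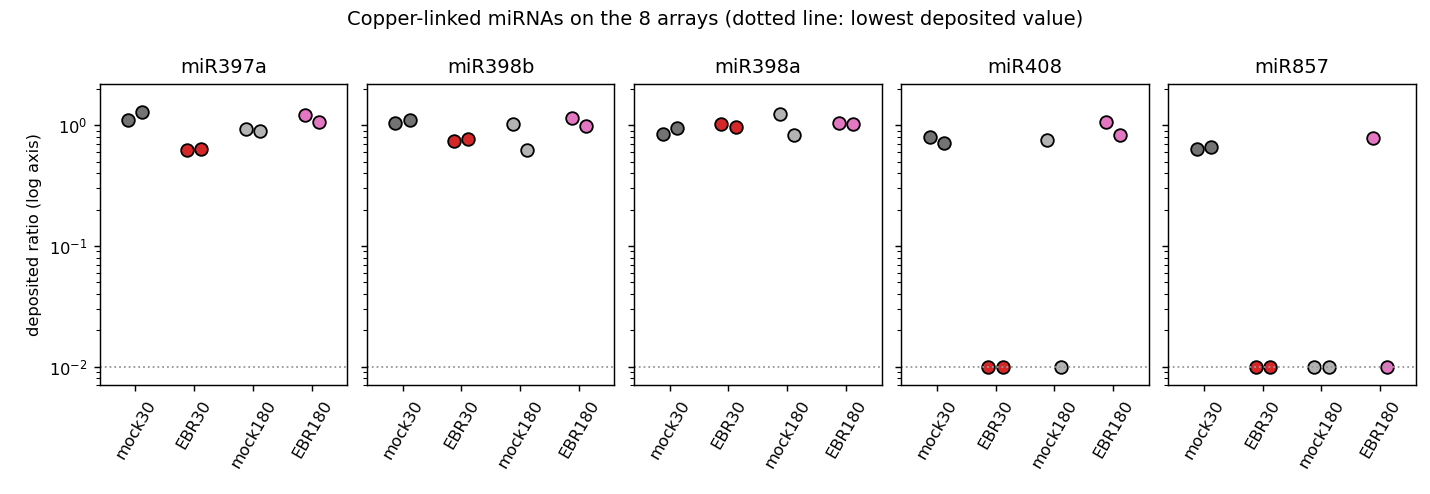
The deposited ratio (log axis) of 5 copper-linked miRNAs is shown on each of the 8 arrays, replicate 1 on the left of each pair, with a dotted line at the lowest deposited value of 0.01. Both EBR30 arrays lie below both mock30 arrays for miR397a and miR398b and on the dotted line for miR408 and miR857, while miR398a is near 1 in both groups.

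The tested miR169 members rose with the deposited ratios. miR169 targets mRNAs of NF-YA proteins, the subunits that give the CCAAT-binding complex NF-Y its sequence preference, and the family is known from responses to drought, nitrogen and phosphate supply. All 3 tested members were called higher in EBR30, against 30.2% of all tested miRNAs. The median of their log2 fold changes was 0.45, against 0.18 over all tested miRNAs. After centring 2 of the 3 were also called higher, against 9.30% of all, and the median was 0.28, against 0.02. The other 2 miR169 probes on the array, miR169b and the star strand miR169g*, were at 0.01 on all arrays.
miR169d (locus AT1G53683) was at 0.506 and 0.652 on the mock30 arrays and at 0.950 and 0.973 on the EBR30 arrays. The mock30 values were the lowest of all 8 arrays, and the EBR30 values were close to the median of the same 8 arrays. The log2 fold change was 0.74 with an interval from 0.50 to 0.99 (limma, adjusted p = 2.01e-07), and 0.58 after centring (adjusted p = 0.000916). With the deposited ratios the call of miR169d was lost when its own spread was used (adjusted p = 0.0772).
miR169h (locus AT1G19371) went from 0.706 and 0.759 to 0.992 and 1.01, again without overlap of the groups. Its log2 fold change was 0.45 (limma, adjusted p = 0.00346), and 0.28 after centring (adjusted p = 0.0109), where the call was lost without either EBR30 array (0.0689 without replicate 1 and 0.0608 without replicate 2).
The smallest change of the family was that of miR169a (locus AT3G13405), at 0.636 and 0.829 in mock30 and 0.877 and 0.958 in EBR30. Its log2 fold change of 0.34 passed (limma, adjusted p = 0.0272), but it was 0.17 after centring (adjusted p = 0.131) and 0.15 without mock30 replicate 1 (adjusted p = 0.528). Members of the family differ by a few bases only, so the 3 probes may not be independent measurements.

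The largest increase belonged to miR846 (locus AT1G61226), a miRNA of *Arabidopsis* and close relatives that targets mRNAs of jacalin-related lectins, carbohydrate-binding proteins. It was at 0.746 and 0.834 on the mock30 arrays and at 1.53 and 1.60 on the EBR30 arrays. Both EBR30 values were the highest and both mock30 values the lowest of the 8 arrays, although mock180 replicate 2 came close to the former, at 1.53. The level was 1.98 times that in mock30, a log2 fold change of 0.99 with an interval from 0.74 to 1.23 (limma, adjusted p = 1.22e-11). After centring it was 0.82 with a standard error of 0.170 (adjusted p = 0.0173), and the adjusted p was then between 0.0608 and 0.0836 with any one of the arrays at 30 min left out, EBR30 replicate 2 giving the lower and mock30 replicate 1 the higher value. Quantile normalization lowered the log2 fold change to 0.59 and ended the call (adjusted p = 0.0658), as did the use of the own spread of each miRNA (adjusted p = 0.0830). The neighbouring gene in the TAIR10.1 annotation encodes miR842, which was at 0.01 on all arrays.

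**Figure D4:**
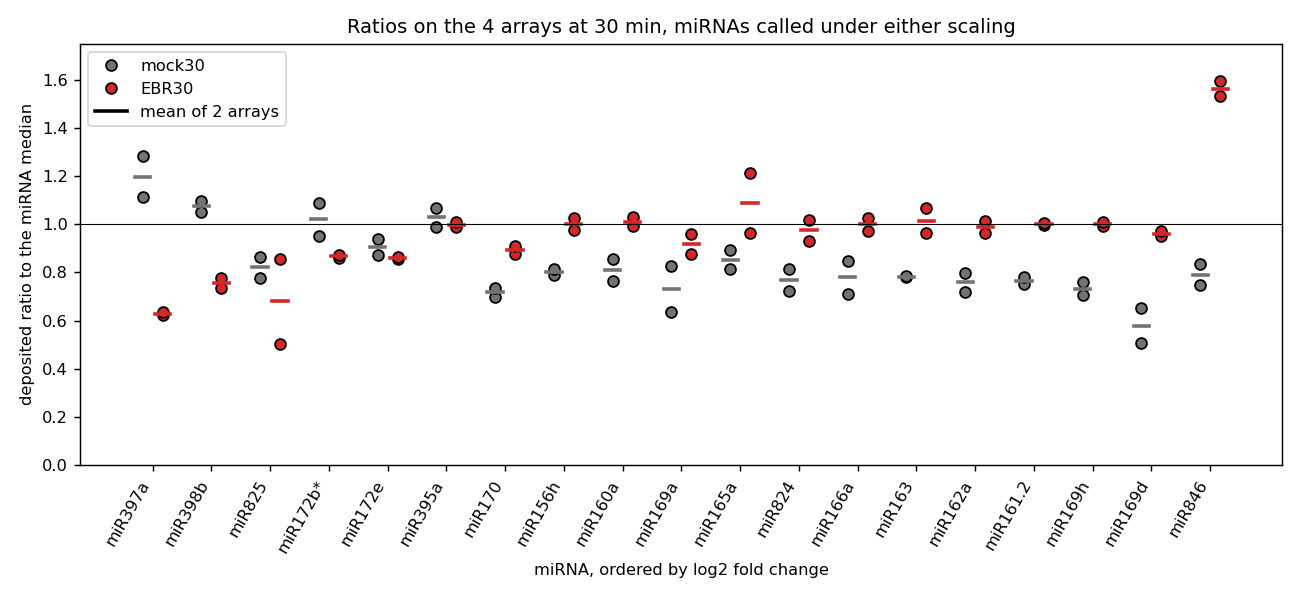
The deposited ratio to the miRNA's median (vertical axis) is shown on the 2 mock30 and 2 EBR30 arrays for the 19 miRNAs called under either scaling, ordered by log2 fold change, with a short line at the mean of 2 arrays. Groups are separate for most miRNAs and overlap for miR825 and miR395a.

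Apart from miR846, the 12 miRNAs that were called higher with the deposited ratios were below a ratio of 1 on both mock30 arrays. Their mock30 ratios lay between 0.506 and 0.892 and their EBR30 ratios between 0.877 and 1.21. A ratio of 1 is the median of the same 8 arrays, which the EBR30 arrays help to set. For miR161.2, miR166a and miR169h the EBR30 arrays were the middle pair, so that their mean ratio was 1.00. EBR30 ratios near 1 are therefore partly fixed by the scaling and do not show which group was at its usual level. In all 13 called higher, miR846 included, the 2 mock30 arrays were the lowest of the 8, and only for miR846 were the EBR30 arrays the 2 highest. Over all 43 tested miRNAs the mock30 arrays were the 2 lowest in 26. Of the 12, miR169d, miR169h and miR160a were also called after centring.

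The miRNAs of the developmental phase change had few calls, each under one scaling only. miR156 and miR157 hold the seedling in its juvenile phase by repressing SPL transcription factors, and miR172 promotes the adult phase by repressing APETALA2-like factors. Of the 3 members of the first group, 1 rose with the deposited ratios, close to the 30.2% of all tested miRNAs that did, and none was called after centring. Neither of the 2 tested members of the miR172 family was called with the deposited ratios, and both fell after centring, where 9.30% of all tested miRNAs did.
miR156h (locus AT5G55835) was at 0.789 and 0.815 in mock30 and at 0.977 and 1.03 in EBR30, which is a log2 fold change of 0.32 (limma, adjusted p = 0.0309) that became 0.16 after centring (adjusted p = 0.131). miR156a and miR157d had log2 fold changes of 0.27 (adjusted p = 0.0718) and 0.24 (adjusted p = 0.111), each with both EBR30 arrays above both mock30 arrays. The 3 changes differed from each other by less than their standard error.
miR172e (locus AT5G59505) was at 0.871 and 0.940 in mock30 and at 0.856 and 0.866 in EBR30, so that the groups were barely separate. Its log2 fold change was -0.07 with the deposited ratios (limma, adjusted p = 0.674), and -0.24 after centring (adjusted p = 0.0109), a call lost without EBR30 replicate 1 (0.0689) or replicate 2 (0.0627). The other call came from miR172b* (locus AT5G04275), the star strand of the miR172b hairpin, which is not the strand that pairs with the APETALA2-like mRNAs. It was at 0.951 and 1.09 in mock30 and at 0.860 and 0.874 in EBR30. On the centred scale the duplicates were nearly equal, at 0.22 and 0.23 in mock30 and at -0.17 and -0.18 in EBR30, which gave a log2 fold change of -0.40 (adjusted p = 0.000757). With the deposited ratios the change of -0.23 did not pass (adjusted p = 0.133).

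Among the 4 tested miRNAs that act in auxin signalling 1, miR160a, was called higher, under both scalings. Of all tested miRNAs 30.2% were called higher with the deposited ratios and 9.30% after centring. miR160 represses the auxin response factors ARF10, ARF16 and ARF17 and shapes the root cap and lateral roots, miR164 represses NAC factors such as CUC1 and CUC2, miR167 represses ARF6 and ARF8, and miR390 triggers the TAS3 small RNAs that repress ARF3 and ARF4. miR160a (locus AT2G39175) was at 0.763 and 0.858 on the mock30 arrays and at 0.993 and 1.03 on the EBR30 arrays. The groups were separate, and the log2 fold change was 0.32 (limma, adjusted p = 0.0309), or 0.16 with a standard error of 0.0374 after centring (adjusted p = 0.0270). With the deposited ratios the call was lost without mock30 replicate 1, EBR30 replicate 1 or EBR30 replicate 2, with adjusted p-values of 0.210, 0.115 and 0.209, and after centring it was lost without any one of the 4 arrays at 30 min. The other 3 tested members were not called under either scaling. miR164a and miR167a had log2 fold changes of 0.18 and 0.17, close to the median of all miRNAs, and of 0.02 and 0.01 after centring. miR390a was at -0.02, with an interval from -0.27 to 0.23, and at -0.19 after centring (adjusted p = 0.131). A further 4 of the 8 probes of this group, those of miR164c, miR167c, miR167d and miR393a, were at 0.01 on all arrays.

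Of the 5 miRNAs that act on HD-ZIP III and GRAS transcription factors, 3 rose with the deposited ratios, where 30.2% of all tested miRNAs did, and none was called after centring, where 18.6% of all were. Whether probes of related members bind each other's targets was not tested, so the 3 calls may not be independent measurements. miR165 and miR166 restrict HD-ZIP III factors to the upper side of leaves and to the inner root vasculature, and miR170 and miR171 repress GRAS factors of the SCL6 group that keep meristems active. miR166a (locus AT2G46685) went from 0.712 and 0.850 to 1.03 and 0.972, a log2 fold change of 0.36 (limma, adjusted p = 0.0199), and miR165a (locus AT1G01183) from 0.814 and 0.892 to 1.21 and 0.963, a log2 fold change of 0.34 (adjusted p = 0.0257). The change of miR165a lay mostly on EBR30 replicate 1, and without that array it was 0.18 (adjusted p = 0.411).
miR170 (locus AT5G66045) was at 0.699 and 0.737 in mock30 and at 0.877 and 0.909 in EBR30, which is a log2 fold change of 0.31 (limma, adjusted p = 0.0334). The closely related miR171a and miR171b were not called, with log2 fold changes of 0.02 and 0.10 and of -0.14 and -0.06 after centring. Their intervals reached from -0.22 to 0.27 and from -0.14 to 0.35, and thus overlapped that of miR170, from 0.07 to 0.56.

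The miRNAs that act on the silencing machinery itself, through DCL1 (miR162), AGO1 (miR168) and AGO2 (miR403), all had positive log2 fold changes with the deposited ratios, as 33 of all 43 miRNAs did, and 1 of the 3 was called higher, against 30.2% of all. miR162a (locus AT5G08185) was at 0.798 and 0.719 in mock30 and at 1.01 and 0.964 in EBR30, which is a log2 fold change of 0.38 (limma, adjusted p = 0.0150) and of 0.22 after centring (adjusted p = 0.170). Of the 16 called miRNAs it was the only one with mock30 replicate 1 above replicate 2. miR168a and miR403 had log2 fold changes of 0.15 and 0.17, and of -0.02 and 0.01 after centring, so that they followed the median of their arrays.

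In the group that targets pentatricopeptide repeat (PPR) genes, which encode RNA-binding proteins of organelles, or that triggers TAS small RNAs, both EBR30 arrays lay above both mock30 arrays for each of the 5 members, an order found in 28 of all 43 miRNAs (65.1%), and after centring for 4 of the 5 (41.9% of all). miR161.2 alone was called, 1 of 5 against 30.2% of all tested miRNAs called higher. It was at 0.750 and 0.782 on the mock30 arrays and at 0.996 and 1.00 on the EBR30 arrays, with a log2 fold change of 0.39 (limma, adjusted p = 0.0150) and of 0.22 after centring (adjusted p = 0.0670). miR161.1, which comes from the same hairpin (locus AT1G48267) in an overlapping register, had 0.22 and, after centring, 0.05. miR158a, miR173 and miR400 lay between 0.21 and 0.28 with the deposited ratios (adjusted p from 0.0718 to 0.173), and between 0.04 and 0.11 after centring.

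Of the sulfate and phosphate miRNAs 3 of the 4 tested had log2 fold changes below 0 with the deposited ratios, and miR395b was above the median of all miRNAs. miR395 represses ATP sulfurylases and a sulfate transporter, miR399 represses PHO2, a negative regulator of phosphate uptake, and miR827 represses NLA, which acts on phosphate transporters. None of the 4 tested members was called with the deposited ratios, where 37.2% of all tested miRNAs were. Their median log2 fold change was -0.04 against 0.18 over all 43 miRNAs. After centring the median was -0.21 against 0.02, and 1 of the 4, miR395a, was called lower, against 9.30% of all. Its ratio was 0.991 and 1.07 in mock30 and 0.988 and 1.01 in EBR30, so the groups overlapped as deposited, and the centred log2 fold change was -0.21 (limma, adjusted p = 0.0242), a call lost without mock30 replicate 1 (adjusted p = 0.0956), EBR30 replicate 1 (0.121) or EBR30 replicate 2 (0.112).
miR827 had the lowest log2 fold change of the group, with ratios of 1.05 and 1.03 in mock30 and 0.970 and 0.915 in EBR30, a change of -0.14 (adjusted p = 0.367) and of -0.30 after centring (adjusted p = 0.0584). miR399b was at -0.05, and at -0.21 after centring (adjusted p = 0.137). miR395b, whose gene neighbours that of miR395a in the TAIR10.1 annotation, had a log2 fold change of 0.22 and of 0.05 after centring. Its mock30 arrays were at 0.846 and 1.08, a spread as wide as the change, and the difference from miR395a was not tested.

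miR159a and miR159b, which repress the GAMYB-like factors MYB33 and MYB65, had nearly the same small log2 fold change of 0.10 each (limma, adjusted p = 0.530 for both), and of -0.07 each after centring. The related miR319a and miR319c, which act on TCP factors, were at 0.01 on all arrays.

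Among the 9 tested miRNAs outside these groups, 3 rose (30.2% of all tested miRNAs did) and 1 fell (6.98% of all) with the deposited ratios, and miR846 alone was called after centring. miR163 (locus AT1G66725), which targets methyltransferases of the SABATH family, was at 0.780 and 0.786 in mock30 and at 1.07 and 0.964 in EBR30, which is a log2 fold change of 0.37 (limma, adjusted p = 0.0170) and of 0.21 after centring (adjusted p = 0.137). miR824 (locus AT4G24415), which represses the MADS-box factor AGL16 in the stomatal lineage, went from 0.723 and 0.813 to 0.931 and 1.02, and its centred log2 fold change of 0.18 just missed the threshold (adjusted p = 0.0620).
miR825 (locus AT2G26211) was called lower on the strength of 1 array. It was at 0.778 and 0.866 in mock30 and at 0.502 and 0.857 in EBR30, so that the groups overlapped. The log2 fold change of -0.32 (limma, adjusted p = 0.0309) became 0.06 when EBR30 replicate 1 was left out (adjusted p = 0.744). The remaining 5 members, miR775, miR822, miR823, miR854a and miR869.2, had log2 fold changes between -0.03 and 0.25, and between -0.19 and 0.08 after centring, with no call.

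The response at 30 min was set against that at 180 min by the difference of the EBR effects, in which no array is shared. The effects differed past the adjusted threshold in limma for 11 of the 43 miRNAs (25.6%) and, after centring, for 15 (34.9%). Those past it only after centring were miR171a, miR172b*, miR172e and miR390a. The values that follow are from the deposited ratios unless centring is named. The log2 fold change of miR397a was -0.92 at 30 min and 0.32 at 180 min (adjusted p of the difference = 8.21e-10), where the effect at 180 min alone did not pass (adjusted p = 0.0586, and 0.00548 after centring). That of miR398b was -0.51 and 0.40 (adjusted p of the difference = 9.46e-06). The effect of miR398b at 180 min alone passed (adjusted p = 0.0126), but not after centring (adjusted p = 0.165). Its mock180 arrays stood apart at 1.02 and 0.629, and without mock180 replicate 2 the effect at 180 min was 0.05 (adjusted p = 0.889) and the difference 0.56 (adjusted p = 0.0211). For miR846 the effects were 0.99 and -0.40 (adjusted p = 1.48e-11), with mock180 arrays that also stood apart, at 1.01 and 1.53. At 180 min alone miR846 passed (adjusted p = 0.0126), but not after centring (adjusted p = 0.137). Without mock180 replicate 2 its effect at 180 min was -0.10 (adjusted p = 0.880) and the difference -1.09 (adjusted p = 1.13e-06). miR169d and miR169h had effects of 0.74 and 0.45 at 30 min and of -0.08 and -0.22 at 180 min (adjusted p = 5.84e-05 and 0.00117), while for miR169a, with 0.34 and 0.05, a difference was not detected (adjusted p = 0.205). miR161.2 had 0.39 and -0.49 (adjusted p = 1.93e-05). miR395a and miR399b differed in the other way, with effects near 0 at 30 min, at -0.04 and -0.05, and of 0.68 and 0.46 at 180 min (adjusted p = 0.000506 and 0.0243). The difference held without any one of the 8 arrays for miR397a, miR398b, miR846, miR169d, miR169h, miR161.2 and miR395a. For miR399b it was lost without mock30 replicate 2, EBR30 replicate 1, mock180 replicate 2 or EBR180 replicate 1, with adjusted p-values between 0.0591 and 0.162. Those of miR157d, miR400 and miR824 were lost without mock30 replicate 1, EBR30 replicate 1, EBR30 replicate 2, mock180 replicate 2 or EBR180 replicate 2, and that of miR400 also without mock180 replicate 1. Without EBR30 replicate 1 the number of differences was 7. The mock arrays themselves differed between the times, miR169d being at 0.506 and 0.652 on the mock30 arrays and at 1.14 and 1.11 on the mock180 arrays, and the part of this in the differences was not tested.

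**Figure D5:**
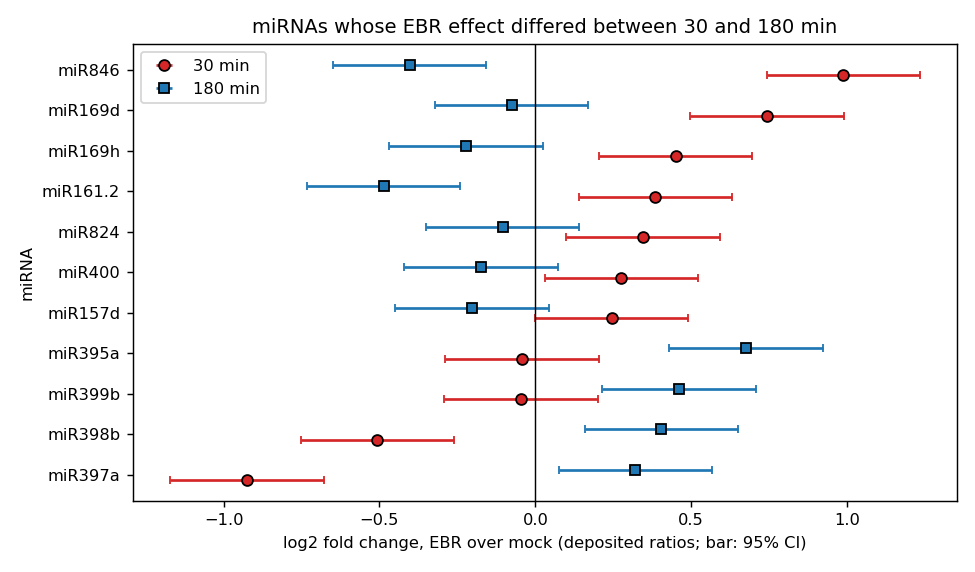
Log2 fold changes of EBR over mock (horizontal axis, deposited ratios, bars for 95% confidence intervals) are shown at 30 min (circles) and 180 min (squares) for the 11 miRNAs whose effects differed in limma. miR846 goes from 0.99 to -0.40 and miR397a from -0.92 to 0.32.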

How the data were processed

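The authors hybridised 100 ng of Cyanine 3-pCp-labelled total RNA per sample to customized single-colour Agilent arrays with probes for 161 miRNAs, and per the submitters' processing notes used Agilent Feature Extraction 9.1. The methods name GeneSpring and a baseline set to the median over samples. For the 43 tested miRNAs the deposited values are linear ratios of each to its median over the 8 arrays. The lowest deposited value was 0.01. Background correction and scaling between arrays are not given in the sources used here, nor is signal over background. Their part in the ratios was not tested. The number of arrays also limits the precision.

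The log2 ratios of the 43 miRNAs above 0.01 on all arrays were fitted with limma 3.58.1 in R 4.3.3, with a mean for each of the 4 groups and empirical Bayes moderation over all 8 arrays. The fit was first tried on simulated data with a common spread for all miRNAs and no shift of whole arrays. That trial cannot show the error rate on arrays that hold such a shift. The p-values were two-sided and adjusted over the 43 miRNAs (Benjamini-Hochberg) and called at 0.05. The fit was repeated on arrays centred by subtracting their median over these miRNAs. The methods name a one-way analysis over the 4 groups. The fit used here also takes its spread from the 4 groups, but it is not that test. With the deposited ratios it used a spread common to all miRNAs. With each miRNA's own spread over the 4 groups 2 miRNAs passed, against 16. Ratios are given for each miRNA called under either scaling, and the others by list or as the members nearest to a call. Alternatives were other scalings, filters and spreads, the replicate number as a block, and the omission of single arrays, which assumes that the lone array left in a group varies as other groups do. Loci are those of the TAIR10.1 annotation, in which all 43 miRNAs were matched by symbol, and some have further loci. The members, lists and tests were chosen with earlier results of these data known.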

Additional observations from a re-analysis of the deposited data

Results flagged for a closer look

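The results listed here are those in which the EBR effect (EBR minus mock, log2) at 180 min differed from that at 30 min past the adjusted threshold in limma. The differences, 180 min minus 30 min, were 1.25 for miR397a and 0.91 for miR398b among the copper-linked miRNAs, -0.82 for miR169d and -0.67 for miR169h in the NF-YA group, and 0.72 for miR395a and 0.51 for miR399b in the nutrient group. The difference was -1.39 for miR846, and that of miR161.2 was -0.87. The smallest differences were -0.45 for miR157d, -0.45 for miR400 and -0.45 for miR824. For miR400, miR824 and miR157d the adjusted p was 0.0474 for each, and after centring it was 0.0225, 0.0321 and 0.0232.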

How the results depend on the processing

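The count of 16 called miRNAs fell to 8 after centring on the array median, 6 after quantile normalization (2 higher and 4 lower), 2 with each miRNA's own spread and 4 when the 4 miRNAs at 0.01 on some arrays were included. In an equal-variance t-test of the EBR30 against the mock30 arrays 0 passed after Benjamini-Hochberg adjustment and 9 passed unadjusted. This is not the one-way analysis that the methods name for the arrays. Centring on the array mean gave 11, 5 higher and 6 lower. With 1 array left out the count was between 5 and 19, and that of 8 after centring between 3 and 13. The replicate number as a block left 16 calls, and all 19 miRNAs called under either scaling kept their side of the threshold, but after centring it raised 8 calls to 14. Deviations of same-numbered arrays correlated between 0.11 and 0.36 across miRNAs in the 6 pairs of groups, and no source says that a number marks a shared experiment. The 11 differences between times became 17 after centring on the mean, 4 with own spreads and 6 with the partly listed miRNAs, and were between 7 and 13 with 1 array left out. With 1 array left out the log2 fold change of miR825 was between -0.71 and 0.063, the latter without EBR30 replicate 1, and that of miR395a between -0.10 and 0.012, the latter without mock30 replicate 2. The cause of these differences was not tested.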

Other observations

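The miRNAs at 0.01 were spread unevenly over the array. Among the 107 miRNAs outside the families grouped by their targets, 97 were at 0.01 on all 8 arrays, compared with 17 of the 54 in the grouped families. The growth-regulating factor regulators miR396a and miR396b were among the latter. miR394a, which targets the F-box gene LCR, was at 0.01 on mock30 replicate 1, at 0.484 on mock30 replicate 2 and at 0.482 and 0.471 on the EBR30 arrays. miR843 was at 0.645 and 0.784 on the mock30 arrays, at 0.646 on EBR30 replicate 1 and at 0.01 on EBR30 replicate 2. In both, duplicates of a group fell on either side, so a single array at 0.01 did not carry over to its duplicate.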
